A study of Mus musculus with 12 samples.

Results

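The contrast described here asked whether EMPA changed gene expression in mouse bone marrow differently after myocardial infarction than after a sham operation. It is the difference of 2 differences, MI-E minus MI less Sham-E minus Sham, and is called the interaction below. All 53801 genes and all 12 libraries of the series belong to it, and 15119 genes had enough counts to be tested. The 4 groups of 3 libraries came from C57BL/6N mice and were Sham, Sham-E (sham operation with EMPA), MI (infarction by ligation of the left anterior descending coronary artery) and MI-E (infarction with EMPA). Libraries are named by the numbers of the deposited columns, which are 1, 3 and 4 in Sham, 1, 2 and 3 in Sham-E and in MI, and 2, 3 and 4 in MI-E, and values for each group are given in that order. The sources used here give neither the age of the mice, nor the dose and duration of EMPA, nor the time after surgery. They also do not say that each library is a separate mouse, so p-values measure only the spread between these samples, which may be technical.

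Bone marrow makes blood cells, and bulk RNA from it mixes B-lineage cells, granulocytes, erythroid cells, megakaryocytes and a supporting stroma. After infarction, the marrow is known to release more neutrophils and monocytes. A positive interaction means that the EMPA difference was higher after infarction than after sham surgery, and a negative one that it was lower. An interaction of log2 size 1 means that the ratio of the EMPA to the untreated group differed by a factor of 2 between the operations. In bulk RNA, fewer cells of a type and less RNA per cell cannot be told apart.

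Some features of the libraries touched every result. Total counts ran from 21175087 to 24606783 per library. Markers of the labelled tissue were present in all libraries, among them Ighm at 523 CPM or more and Hbb-bs at 3477 CPM or more (CPM, counts scaled to a common library size and for library composition). The library Sham-E 1 stood apart. It had 1.21 CPM of Rag1, which cuts antigen receptor genes in early B cells, against 185 and 207 in the other Sham-E libraries, and 18.8 CPM of the erythroid factor Klf1 against 193 and 297. It also had 751 CPM of Ctsg, a protease of granulocyte precursors, against 190.2 and 176. Medians of gene groups are therefore also given without Sham-E 1, or as the range found as each library was left out. The mean length of sequenced inserts, implied by the ratio of counts to TPM, was 262.3 to 264.4 bp in MI and 270.2 to 286.1 bp in the other groups. Insert length and group cannot be told apart.

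By edgeR's quasi-likelihood test with Benjamini-Hochberg adjustment over all 15119 genes, 1 gene passed an adjusted p of 0.05 for the interaction (0.00661% of genes tested), and its interaction was positive. None passed in the negative direction. The interaction was positive in 47% of genes tested and negative in 53%. An unadjusted p under 0.05 was reached by 941 genes with a positive interaction (6.22%) and 1101 with a negative one (7.28%). The number of calls depended on the tool and on 1 library. DESeq2 called 167 genes, 106 positive and 61 negative, limma-voom called 0, with 2051 at an unadjusted p under 0.05, and edgeR without MI 1 called 150 genes. The next smallest edgeR adjusted p after the called gene was 0.177, so every other gene below is described by its values and did not pass.

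The called gene was B430305J03Rik (ENSMUSG00000053706, chr3:61362250-61365951, minus strand, mm10), a gene model annotated as protein coding that lies outside the rule for named genes and was named after its values were seen. It had 9.85, 8.21 and 7.19 CPM in Sham, 7.74, 3.42 and 4.58 in Sham-E, 0, 0.149 and 0 in MI, and 4.44, 5.72 and 6.32 in MI-E. Counts assigned to it were nearly missing from MI alone, with 3 over its 3 libraries, all in MI 2. They were 612 in Sham, 370 in Sham-E and 364 in MI-E. The MI-E to MI ratio of summed, scaled counts was 117 (95% exact interval 39.7 to 570, counting error only), whereas Sham exceeded Sham-E by a ratio of 1.62 (1.42 to 1.85). The fitted interaction was 7.39 ± 0.79 (log2 ± SE, edgeR adjusted p = 0.0072). With 2 of the MI libraries at 0 this fitted size depends on the prior count. Leaving out each library in turn gave 6.79 to 10.68, and each of those fits called it, but limma-voom gave an adjusted p of 0.126. With all libraries kept, the other tools, scalings, filters and models gave a size of 1.92 to 7.68.

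All exon bases of B430305J03Rik (100%) lie inside exons of Rap2b, a Ras-family small GTPase gene on the opposite strand (chr3:61361638-61368430, plus strand). The sources used here do not say whether the library kit kept strand, so reads of the pair may not have been told apart. The intervals above leave out error in assigning counts within the pair, and the summed counts of the pair were not tested. Rap2b had 34.5, 32.1 and 35.9 CPM in Sham, 44.5, 38.3 and 36.7 in Sham-E, 47.6, 53.1 and 44.8 in MI, and 41.4, 39.8 and 35.1 in MI-E. The order of its group means was the opposite of its partner's, with every MI library above all others. Its interaction was −0.55 ± 0.18 (log2 ± SE, edgeR adjusted p = 0.28), which did not pass.

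Across all genes tested, the EMPA difference went in opposite directions after the operations in 60.4% of genes. The median interaction was −0.038, with 5th and 95th percentiles of −0.99 and 1.27 on the log2 scale, and the median SE was 0.33. Pearson's r between the EMPA difference after infarction and that after sham surgery was −0.21 and Spearman's rho −0.24 across 15119 genes, as a description. These differences share no library, though they come from 1 fit and 1 scaling. Leaving out Sham-E 1 took r to −0.11 and the share of opposite signs to 54.8%. EMPA differences were larger in absolute size after infarction in 66.8% of genes, with a median of 0.27 against 0.15 after sham surgery.

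The genes at an unadjusted p under 0.05 were chosen by the contrast itself, so their shape is a description. Of these 2042 genes, 882 were higher with EMPA after infarction and lower with EMPA after sham surgery, and 1061 had the reverse pattern. MI was the group whose mean lay farthest from the mean of the other groups in 53.4% of them, against 34.2% of all genes tested. The same share was 35.3% for MI-E (31.4% of all genes), 7.69% for Sham (20% of all genes) and 3.62% for Sham-E (14.4% of all genes). The plot of both EMPA differences shows these genes in the upper left and lower right.

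**Figure D1:**
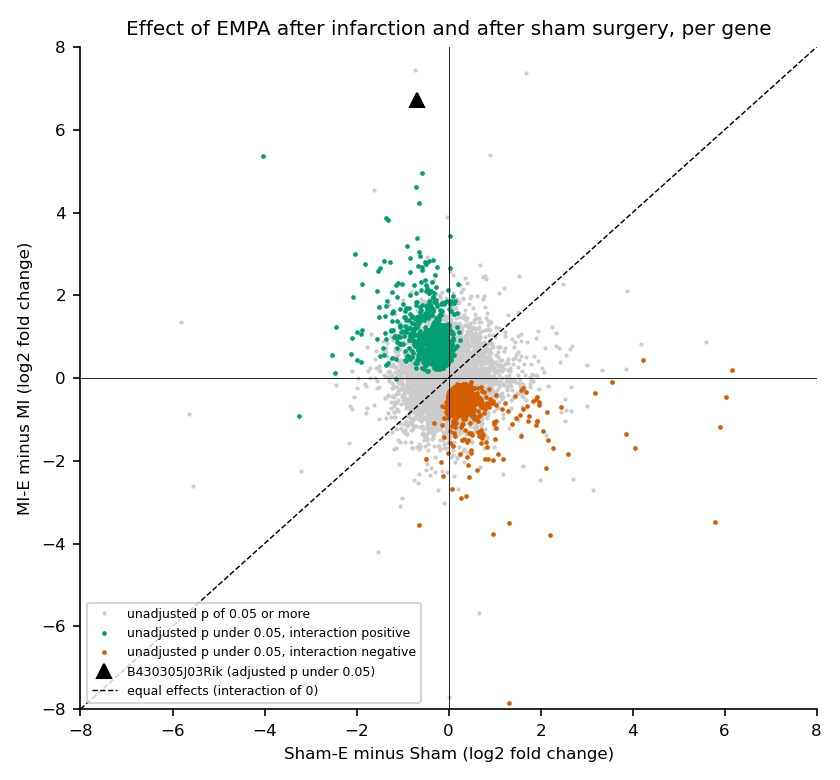
Each point is 1 gene, with the Sham-E minus Sham difference on the x axis and the MI-E minus MI difference on the y axis (log2 fold changes of edgeR). Genes on the dashed line have an interaction of 0; coloured genes had an unadjusted p under 0.05, the triangle marks B430305J03Rik, and 4 genes lie outside the axes.

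Among genes with a positive interaction, the 8 with the smallest p that met the rule for names were Pfdn6, Bex3, Hist1h1d, Junb, Pebp1, Src, Hist1h3a and Rpl22l1. None passed in edgeR (adjusted p 0.22 to 0.24), and DESeq2 called all 8. Pfdn6 (chr17:33938821-33940343, minus strand) encodes a subunit of prefoldin, which hands new actin and tubulin chains to the chaperonin. It had 29.4, 31.4 and 23.1 CPM in Sham, 23.2, 22.9 and 20.5 in Sham-E, 20.5, 15.4 and 16 in MI, and 41.5, 33.4 and 32.2 in MI-E. Every MI-E library was above every library of the other groups, and Sham and Sham-E overlapped. The interaction was 1.38 ± 0.24 (log2 ± SE), and 0.94 after an offset for transcript length and GC content.

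Bex3 (chrX:136270253-136271978, plus strand), an X-linked adaptor that binds a neurotrophin receptor, had 29.9, 30.7 and 30.5 CPM in Sham, 21.6, 25.9 and 25.7 in Sham-E, 17.4, 8.53 and 10.9 in MI, and 28.7, 29.3 and 28.8 in MI-E. MI was the lowest group, the groups did not overlap, and MI-E was just under Sham. The interaction was 1.55 ± 0.29 (log2 ± SE), and 1.35 to 1.89 as each library was left out. Pebp1, an inhibitor of Raf kinase signalling, had 93.2, 93.9 and 104 CPM in Sham, 96.6, 89.6 and 81 in Sham-E, 65, 59.4 and 50.4 in MI, and 98.4, 106 and 89.9 in MI-E. Its MI libraries were below all others, which overlapped one another. The interaction of Pebp1 was 0.87 ± 0.18.

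The tyrosine kinase gene Src was low in both Sham-E and MI. It had 4.14, 3.2 and 3.73 CPM in Sham, 1.51, 1.9 and 1.64 in Sham-E, 2.23, 1.44 and 2.32 in MI, and 4.78, 3.53 and 2.73 in MI-E. Sham-E and MI overlapped, as did Sham and MI-E, and every library of the first pair was below every library of the second. Its interaction was 2.01 ± 0.42, made up of an EMPA difference of 0.88 ± 0.30 after infarction and −1.13 ± 0.30 after sham surgery (log2 ± SE). Rpl22l1, a paralogue of a ribosomal protein, had 101, 88.5 and 94.6 CPM in Sham, 98.2, 68.8 and 73.7 in Sham-E, 40.4, 40.4 and 43.4 in MI, and 68.3, 125 and 74.3 in MI-E. Its MI libraries were again the lowest, and the other groups overlapped. The interaction was 1.34 ± 0.29.

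The leading genes with a negative interaction were Slco4c1, Gpr141, Gpr65, Clec4a1, BE692007, Vps54, Ifi207 and mt-Nd6. None of these passed in edgeR either (adjusted p 0.22 to 0.24), and DESeq2 called all 8. Slco4c1 (chr1:96816270-96872171, minus strand), an organic anion transporter, had 41.4, 37.1 and 37.1 CPM in Sham, 50.1, 43.1 and 39.7 in Sham-E, 61.8, 66.4 and 66.9 in MI, and 39.2, 34.5 and 34.1 in MI-E. MI was above every other group, and Sham overlapped with both Sham-E and MI-E. The interaction was −1.06 ± 0.17 (log2 ± SE), and −0.79 with the length and GC offset.

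Several of these genes encode receptors at the surface of blood cells. Gpr65 (chr12:98268635-98276644, plus strand), which senses protons, had 24.1, 31 and 27.9 CPM in Sham, 39.5, 38.3 and 39.3 in Sham-E, 48.6, 62.2 and 54.9 in MI, and 36.5, 39.3 and 28.8 in MI-E. Sham-E was above Sham, MI above both, and MI-E overlapped with Sham and Sham-E. Its interaction was −1.16 ± 0.21. Gpr141 (chr13:19749682-19824257, minus strand), an orphan receptor, had 72.3, 67.7 and 69 CPM in Sham, 111, 85.5 and 94.5 in Sham-E, 116, 126 and 112 in MI, and 79.2, 92 and 80.9 in MI-E. MI was the highest group and Sham the lowest. The interaction was −0.96 ± 0.17.

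The C-type lectin receptor gene Clec4a1 (chr6:122921848-122934619, plus strand) had 23.9, 25.4 and 23.1 CPM in Sham, 45.1, 27.9 and 28.2 in Sham-E, 47.7, 53.3 and 50.7 in MI, and 29, 28.8 and 27.8 in MI-E. MI was highest, and Sham-E 1 was close to MI while the other Sham-E libraries were close to MI-E. Its interaction was −1.31 ± 0.24, and −1.04 without Sham-E 1. Vps54, part of the complex that tethers vesicles returning to the Golgi, had 82.1, 73.8 and 78.5 CPM in Sham, 104, 89.3 and 87 in Sham-E, 104, 132 and 124 in MI, and 76.2, 75 and 79.4 in MI-E. Sham-E overlapped with MI and was above both Sham and MI-E. The interaction was −0.90 ± 0.17.

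Ifi207, of a family of interferon-inducible DNA sensors, had 21.9, 26.5 and 23.9 CPM in Sham, 32.6, 31.1 and 35.5 in Sham-E, 29.3, 37.5 and 58.1 in MI, and 22.6, 16.3 and 19.4 in MI-E. MI 3 was its highest library, and all MI-E libraries were below all of Sham-E and MI. The interaction was −1.55 ± 0.31, and −1.23 without MI 3. BE692007 had an interaction of −1.14 ± 0.22, and 20.8% of its exon bases overlap Ms4a6c, so its count is less certain.

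**Figure D2:**
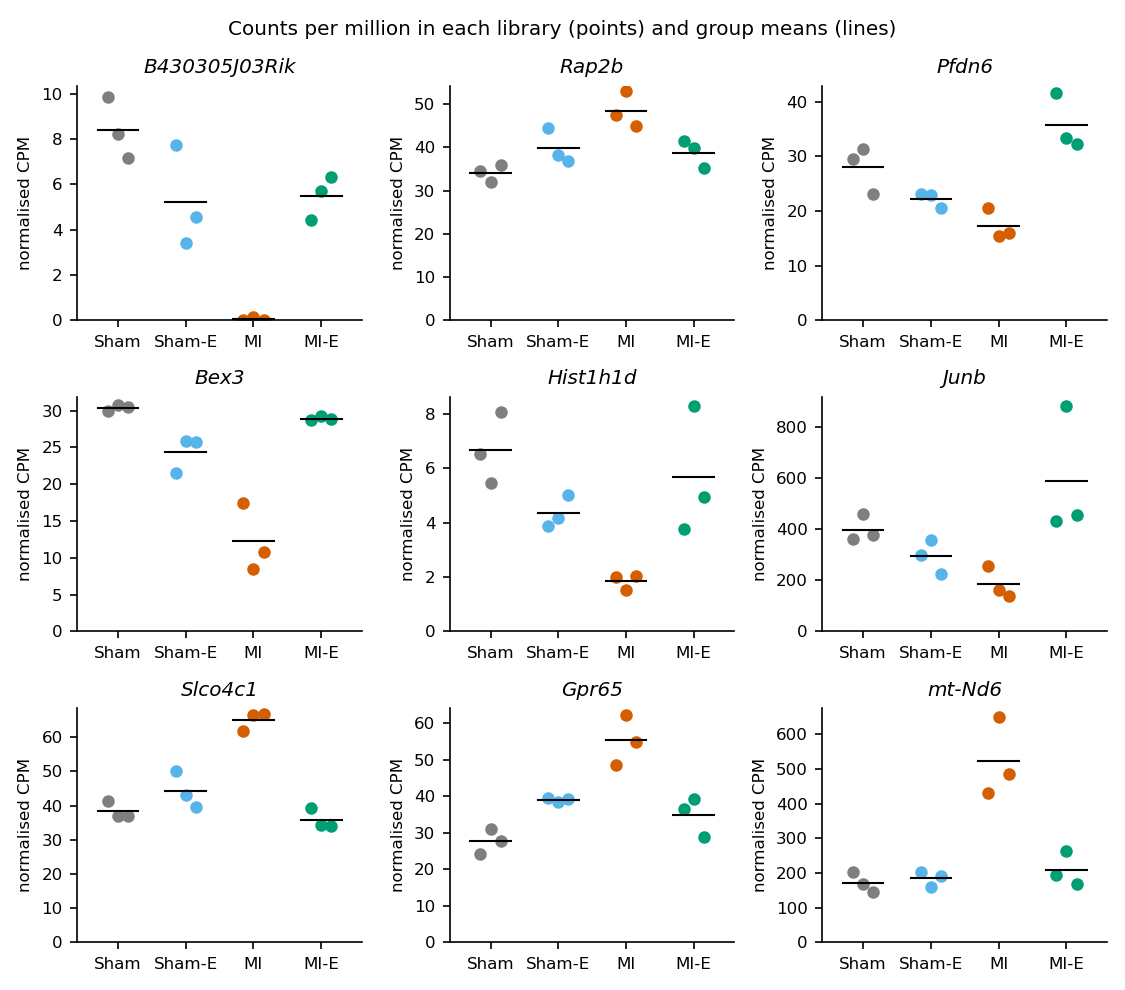
Normalised CPM (y axes, each from 0) of 9 genes in every library (points) with group means (lines). MI has the lowest or the highest mean in each panel.

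Histones package DNA, and the replication-dependent histone genes are expressed as cells copy their DNA. Of 41 histone genes tested, 40 had a positive interaction, 31 of them at an unadjusted p under 0.05 and none in the negative direction (6.22% and 7.28% of all genes tested). The median interaction was 2.01, against −0.038 for all genes. The median EMPA difference was 1.41 after infarction and −0.47 after sham surgery. No histone gene passed the adjusted threshold in edgeR. The mean log2 CPM over the list was 1.33, 1.35 and 1.92 in Sham, 0.98, 1.12 and 1.14 in Sham-E, 0.37, −0.018 and −0.068 in MI, and 1.20, 1.83 and 1.36 in MI-E. Every MI library was below every other library, all Sham libraries were above all Sham-E libraries, and Sham and MI-E overlapped.

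The smallest p of the list, and of all genes that were not called, belonged to Hist1h2bn, which encodes a core histone. It had 1.49, 1.64 and 3.1 CPM in Sham, 0.735, 0.854 and 0.755 in Sham-E, 0.21, 0.0991 and 0.0987 in MI, and 0.888, 1.24 and 0.91 in MI-E. The groups did not overlap, in the order Sham, MI-E, Sham-E, MI. Its interaction was 4.22 ± 0.65 (log2 ± SE, edgeR adjusted p = 0.18). The linker histone gene Hist1h1d, one of the leading genes above, had 6.53, 5.46 and 8.06 CPM in Sham, 3.89, 4.19 and 5.02 in Sham-E, 2.02, 1.54 and 2.02 in MI, and 3.76, 8.29 and 4.96 in MI-E. MI was the lowest group, and MI-E overlapped with both Sham and Sham-E. The interaction of Hist1h1d was 2.22 ± 0.43 (adjusted p = 0.22).

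Histone transcripts are short, with a median length of 620 bases and a median GC content of 55.6%. Many are near-identical copies, so the authors' counting may have split reads among them. Without Sham-E 1 the histone median was 1.95, with 28 positive and 1 negative at an unadjusted p under 0.05. With the length and GC offset it was 1.24, with 23 positive and 1 negative. Of all genes tested, 5.80% were positive and 5.31% negative at that level without Sham-E 1 (median −0.014), and 3.73% and 7.96% with the offset (median −0.12). Insert length was shortest in the MI libraries, in which histone levels were also lowest, and the 2 cannot be told apart here.

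The start regions of 2 histone genes and of Junb are shown because 40 of 41 histone genes had a positive interaction and Junb led the signalling genes described next. They are 250 bases before to 50 after the RefSeq start (GRCm38.p6), 5′ to 3′ on the gene's strand. Capitals mark CCAAT and TATAAA on either strand (ATTGG and TTTATA on the opposite one).
Hist1h2bn, chr13:21753826-21754125, plus strand: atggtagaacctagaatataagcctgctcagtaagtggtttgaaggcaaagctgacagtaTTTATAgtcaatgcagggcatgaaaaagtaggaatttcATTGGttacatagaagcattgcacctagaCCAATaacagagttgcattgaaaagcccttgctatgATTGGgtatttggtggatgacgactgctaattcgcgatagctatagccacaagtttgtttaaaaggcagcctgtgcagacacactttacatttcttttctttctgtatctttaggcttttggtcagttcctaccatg
Hist1h1d, chr13:23554782-23555081, plus strand: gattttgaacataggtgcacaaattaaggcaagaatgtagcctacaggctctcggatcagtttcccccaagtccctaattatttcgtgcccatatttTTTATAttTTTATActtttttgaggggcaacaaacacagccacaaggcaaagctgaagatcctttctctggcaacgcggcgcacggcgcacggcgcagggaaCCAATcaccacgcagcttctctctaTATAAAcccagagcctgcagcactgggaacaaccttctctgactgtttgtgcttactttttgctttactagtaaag
Junb, chr8:84978699-84978998, minus strand: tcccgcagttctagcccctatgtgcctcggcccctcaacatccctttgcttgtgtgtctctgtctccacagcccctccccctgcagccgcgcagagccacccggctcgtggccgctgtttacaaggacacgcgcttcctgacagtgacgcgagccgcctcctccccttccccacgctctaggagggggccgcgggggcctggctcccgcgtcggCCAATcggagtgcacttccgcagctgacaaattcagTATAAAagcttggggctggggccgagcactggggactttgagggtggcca
CCAAT was present in 31 of 37 histone windows found by symbol (83.8%) and in 37.9% of 27025 windows of all genes. TATAAA was present in 21 of the 37 (56.8%) and in 14.2% of all. Among 21 windows of immediate early genes these counts were 8 (38.1%) and 4 (19%). These matches describe letters only.

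Immediate early genes are switched on within minutes of a signal and encode mostly transcription factors and their regulators. Of 25 tested, 21 had a positive interaction, with a median of 1.18. At an unadjusted p under 0.05, 13 (52%) were positive and none negative, against 6.22% and 7.28% of all genes tested. The median EMPA difference was 0.92 after infarction and −0.13 after sham surgery. Junb (chr8:84974484-84978718, minus strand), a Jun-family transcription factor, had 360.5, 457 and 376 CPM in Sham, 299.8, 358 and 224 in Sham-E, 256, 162 and 137 in MI, and 431, 879 and 456 in MI-E. MI-E was above MI and Sham-E, and MI-E 3 was the highest library. The interaction was 2.11 ± 0.43 (log2 ± SE, edgeR adjusted p = 0.24), and 1.70 without MI-E 3.

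Fosb, a partner of Jun proteins, had 14.7, 72.6 and 56.5 CPM in Sham, 22.1, 27.6 and 7.64 in Sham-E, 5.79, 4.16 and 4.88 in MI, and 21.6, 163 and 25.9 in MI-E. MI-E 3 was far above every other library, and the MI libraries were the lowest. The interaction of Fosb was 5.15 ± 1.19, and 3.59 without MI-E 3. Ier5, an immediate early response gene, had 153, 161 and 138 CPM in Sham, 106, 141 and 117 in Sham-E, 100.02, 77.2 and 58.6 in MI, and 117, 181 and 133 in MI-E. MI was below the other groups, which overlapped. The interaction of Ier5 was 1.18 ± 0.29.

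Jund, with 52.6% of its exon bases inside another gene model and so a less certain count, had an interaction of 1.998 ± 0.47. The list's mean log2 CPM was 5.49, 5.97 and 5.79 in Sham, 5.45, 5.78 and 5.31 in Sham-E, 5.07, 5.06 and 4.65 in MI, and 5.48, 6.65 and 5.52 in MI-E. MI was below all others, and MI-E 3 stood above all. Without MI-E 3 the list median was 0.70, with 10 positive and 1 negative at an unadjusted p under 0.05. In that fit 1805 of 15512 genes were at that level in either direction. The list median was 1.09 without Sham-E 1, with 13 and 0 (5.80% and 5.31% of all genes). With the length and GC offset it was 0.92, with 10 and 1 (3.73% and 7.96% of all genes).

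Megakaryocytes release platelets, and their genes had a median close to that of the immediate early genes. Of 17 megakaryocyte and platelet genes tested, 16 had a positive interaction, with a median of 1.20. At an unadjusted p under 0.05, 9 (52.9%) were positive and none negative, against 6.22% and 7.28% of all genes tested. The median was 1.38 without Sham-E 1, with 8 positive at that level (5.80% of all genes). It was 1.32 with the length and GC offset, with 6 (3.73% of all genes). Gp5 (chr16:30307685-30310779, minus strand) and Gp9 (chr6:87778072-87779768, plus strand) encode parts of the platelet receptor for von Willebrand factor. Gp5 had 12, 5.58 and 12 CPM in Sham, 4.84, 4.46 and 7.95 in Sham-E, 9.32, 3.07 and 5.62 in MI, and 15.8, 10.9 and 14.5 in MI-E. Its MI-E libraries were above all Sham-E and MI libraries, and Sham 3 was low for its group.

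Gp9 had 11.4, 7.22 and 13.2 CPM in Sham, 3.37, 7.1 and 9.29 in Sham-E, 8.65, 2.48 and 4 in MI, and 13.6, 12.8 and 16.1 in MI-E. Its MI-E libraries again lay above Sham-E and MI, whereas Sham overlapped with every group. The interaction was 1.97 ± 0.56 for Gp5 and 2.17 ± 0.62 for Gp9 (log2 ± SE, edgeR adjusted p = 0.27 for both). Treml1, a receptor in platelet granules, had an interaction of 2.80 ± 0.80, and Vwf, von Willebrand factor, of 1.65 ± 0.53. The list's mean log2 CPM was 3.94, 2.63 and 3.87 in Sham, 2.94, 2.55 and 3.37 in Sham-E, 3.67, 2.75 and 3.05 in MI, and 4.15, 3.87 and 4.01 in MI-E. MI-E was the highest group, with no library below 3.87, and the other groups spread widely.

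**Figure D3:**
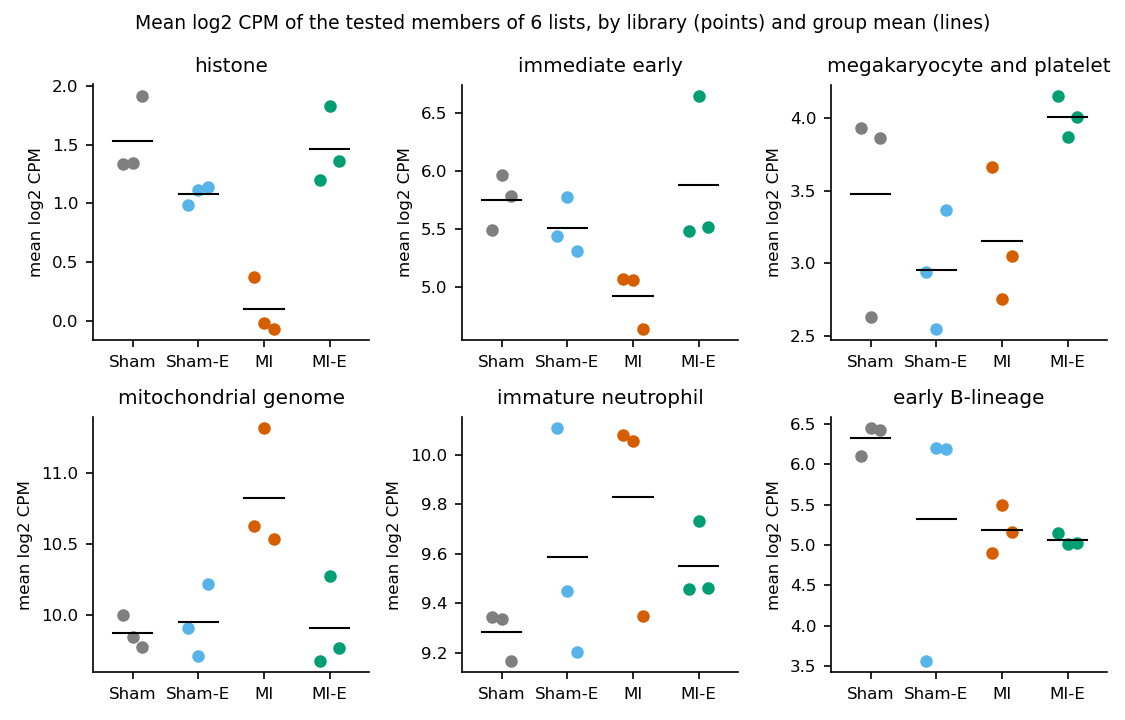
Mean log2 CPM of the tested members of 6 gene lists (y axes, not from 0) in every library (points), with group means (lines). MI is lowest for histone and immediate early genes and highest for genes of the mitochondrial genome, MI-E is highest for megakaryocyte genes, and Sham-E 1 lies apart in the early B-lineage panel.

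Mitochondrial DNA encodes core subunits of the respiratory chain. All 9 of its genes that were tested had a negative interaction, with a median of −0.98. At an unadjusted p under 0.05, 7 (77.8%) were negative, against 7.28% of all genes tested. The median EMPA difference was −0.88 after infarction and 0.13 after sham surgery. The leading gene mt-Nd6 (chrM:13552-14070, minus strand), a subunit of complex I, had 202, 169 and 144 CPM in Sham, 202, 161 and 192 in Sham-E, 432, 651 and 485 in MI, and 196, 262 and 169 in MI-E. Every MI library was above all others, which overlapped. Its interaction was −1.43 ± 0.29 (log2 ± SE, edgeR adjusted p = 0.24).

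Another complex I gene, mt-Nd1, had 1577, 1355 and 1254 CPM in Sham, 1539.5, 1329 and 1698 in Sham-E, 3362, 3840.2 and 2917 in MI, and 1747, 2471 and 1672 in MI-E. MI was again the highest group. The interaction of mt-Nd1 was −0.91 ± 0.27. The share of all counts from mitochondrial genes was 1.55% ± 0.10 in Sham, 1.61% ± 0.25 in Sham-E, 2.74% ± 0.73 in MI and 1.53% ± 0.29 in MI-E (SD, n = 3 each). Its highest library was MI 2, at 3.58%. The median was −0.91 without Sham-E 1, −0.73 without MI 2 and −0.80 with the length and GC offset.

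Nuclear genes of the respiratory chain, with a median GC content of 48.7%, did not share the direction of the mitochondrial genes. Of 33 tested, 26 had a positive interaction. At an unadjusted p under 0.05, 4 (12.1%) were positive and none negative, against 6.22% and 7.28% of all genes tested. The median was 0.16. It was 0.17 without Sham-E 1, 0.078 without MI 2, 0.081 without MI-E 3 and 0.050 with the length and GC offset, where 19 were positive and 14 negative. Ndufa2, a nuclear-encoded subunit of complex I, had 46.8, 48.9 and 41.1 CPM in Sham, 44.5, 35 and 34 in Sham-E, 40, 23.4 and 25.8 in MI, and 55.9, 72.8 and 53.2 in MI-E. MI-E was above every other group. Its interaction was 1.30 ± 0.29, and 0.89 with the length and GC offset.

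Neutrophil genes had mostly negative interactions. Of 16 genes of immature neutrophils, which fill their granules in the marrow, all 16 were negative, 5 at an unadjusted p under 0.05, with a median of −0.73. Of 25 genes of mature neutrophils, 21 were negative, 7 at an unadjusted p under 0.05, with a median of −0.74. No member of either list was positive at that level, and 7.28% of all genes tested were negative at it. Wfdc21, a small secreted protein, had 174, 182 and 193 CPM in Sham, 371, 222 and 267 in Sham-E, 712, 667 and 482 in MI, and 298, 463 and 318 in MI-E. The order was MI, then MI-E overlapping with Sham-E, then Sham. The interaction of Wfdc21 was −1.44 ± 0.32 (log2 ± SE, edgeR adjusted p = 0.24).

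Mmp8, the collagenase of neutrophil granules, had 888, 753 and 682 CPM in Sham, 1336, 948 and 830.3 in Sham-E, 1457, 1619 and 944 in MI, and 738, 898 and 818 in MI-E. MI was above MI-E and Sham, and Sham-E 1 was within the range of MI. Its interaction was −1.13 ± 0.32, and −0.91 without Sham-E 1. Fpr1, the formyl peptide receptor, had 84.8, 75.6 and 75.6 CPM in Sham, 97.9, 107 and 87.8 in Sham-E, 144, 166 and 113 in MI, and 99.4, 116 and 99 in MI-E. Sham was the lowest group and MI overlapped with MI-E. The interaction of Fpr1 was −0.74 ± 0.21.

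The chitinase-like gene Chil3 had 2734, 2268 and 2342 CPM in Sham, 9136, 3025 and 2905 in Sham-E, 7989, 4205 and 5648 in MI, and 4524, 3928 and 5008 in MI-E. Sham-E 1 was its highest library. The interaction went from −1.44 ± 0.55 to −0.68 without that library. Without Sham-E 1 the median was −0.31 for immature neutrophil genes, with 1 of 16 negative at an unadjusted p under 0.05, near the 5.31% of all genes in that fit. It was −0.15 for mature neutrophil genes, with 16 of 25 negative, 6 of them at that level. Genes of early granulocyte precursors went from a median of −0.29 to 0.40, so that direction rested on Sham-E 1.

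Genes of eosinophils, basophils and mast cells were uneven. Of 16 tested, 10 had a positive interaction and 6 a negative one, with a median of 0.16. At an unadjusted p under 0.05, 5 (31.25%) were positive and none negative, against 6.22% and 7.28% of all genes tested. Without Sham-E 1 the median was 0.12, with 3 positive and 2 negative at that level (5.80% and 5.31% of all genes). Without Sham-E 2 it was 0.33. The smallest p-values in the list were those of Prg3, Epx, Prg2 and Ear2, which encode eosinophil granule proteins. Prg2 (chr2:84980461-84983632, plus strand), major basic protein, had 1138, 1364 and 1368 CPM in Sham, 661, 892 and 995 in Sham-E, 1529.6, 982 and 1606 in MI, and 2586, 2046 and 1718 in MI-E. Sham-E was below Sham, and MI-E was above all others. Its interaction was 1.23 ± 0.32 (log2 ± SE, edgeR adjusted p = 0.25).

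Prg3, its homologue next to it on chr2, had 50.1, 55.7 and 62.4 CPM in Sham, 19.6, 38.4 and 45 in Sham-E, 33.8, 29.5 and 31.3 in MI, and 66.2, 56 and 48 in MI-E. Sham and MI-E overlapped at the higher levels, Sham-E and MI at the lower ones. The interaction of Prg3 was 1.55 ± 0.34, that of the eosinophil peroxidase gene Epx 1.23 ± 0.31, and that of Ear2, an eosinophil ribonuclease, 0.78 ± 0.33. The basophil protease gene Mcpt8, read after its values were seen, had −0.28 ± 0.53. Without Sham-E 1 the interactions were 1.08 for Prg2, 1.28 for Prg3, 1.05 for Epx and 0.66 for Ear2.

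With all libraries, B-lineage lists had positive medians, which varied as libraries were left out. Of 26 mature B-cell genes, 22 were positive, with a median of 0.36. At an unadjusted p under 0.05, 3 (11.5%) were positive and 1 (3.85%) negative, against 6.22% and 7.28% of all genes tested. Without Sham-E 1 the median was 0.20, with 1 positive and 1 negative at that level (5.80% and 5.31% of all genes). It was 0.21 without MI 3 and 0.23 without Sham 3. Cd79a, which carries the signal of the B-cell receptor, had 221, 338 and 236 CPM in Sham, 113, 241 and 226 in Sham-E, 138, 98.9 and 76.1 in MI, and 192, 245 and 191 in MI-E. MI was below Sham and MI-E. Its interaction was 1.46 ± 0.41 (log2 ± SE, edgeR adjusted p = 0.26). The interaction was 0.25 ± 0.48 for Ms4a1, which encodes CD20, 0.38 ± 0.40 for the IgM heavy chain gene Ighm and 0.092 ± 0.38 for the IgD heavy chain gene Ighd. It fell below 0 without MI 3 for Ms4a1 (−0.066) and for Ighd (−0.16).

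Early B-lineage genes showed how much 1 library weighed. The mean log2 CPM of the 22 genes was 6.10, 6.45 and 6.42 in Sham, 3.57, 6.20 and 6.19 in Sham-E, 4.90, 5.50 and 5.16 in MI, and 5.15, 5.01 and 5.03 in MI-E. MI and MI-E overlapped, and Sham-E 1 was far below all others. The median interaction was 0.32 with all libraries, −0.045 without Sham-E 1, 0.62 without Sham-E 2, 0.68 without Sham-E 3 and 0.55 without MI 2. With limma-voom and all libraries it was 0.80, with 20 of 22 positive. Rag1 had 125, 254 and 259.6 CPM in Sham, 1.21, 185 and 207 in Sham-E, 23.4, 109.6 and 34.6 in MI, and 46.7, 36.5 and 32.6 in MI-E. Its interaction of 0.17 ± 1.52 turned to −0.41 without Sham-E 1, and that of the interleukin 7 receptor gene Il7r from 0.16 ± 0.65 to −0.28.

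Erythroid genes had a median of 0.70, with 21 of 23 positive and none at an unadjusted p under 0.05. It was 0.25 without Sham-E 1, with 3 positive and 1 negative at that level (5.80% and 5.31% of all genes). It was 0.42 without MI-E 4, 1.23 without MI 3 and 1.43 without Sham-E 3. The haemoglobin share of counts was 1.86% ± 0.31 in Sham, 1.52% ± 0.98 in Sham-E, 2.00% ± 1.42 in MI and 2.41% ± 0.66 in MI-E (SD, n = 3 each).

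Of 30 proliferation genes, 27 were positive, with a median of 0.37. At an unadjusted p under 0.05, 11 (36.7%) were positive and none negative, against 6.22% and 7.28% of all genes tested. The 4 with the smallest p were Ung, Gins2, Mcm5 and Rrm2, which act in DNA synthesis or repair. The count of Gins2 is less certain, since 67.3% of its exon bases overlap another gene. Rrm2, a subunit of ribonucleotide reductase, had 399, 389 and 459.7 CPM in Sham, 312, 386 and 497 in Sham-E, 290.2, 287 and 283 in MI, and 451, 421 and 655 in MI-E. MI was below all other groups, which overlapped. The interaction was 0.89 ± 0.28 for Rrm2, 1.03 ± 0.28 for Ung, a uracil glycosylase, and 0.61 ± 0.19 for Mcm5, part of the replicative helicase. Without Sham-E 1 the list median was 0.26, with 8 positive at an unadjusted p under 0.05 (5.80% of all genes).

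Ribosomal protein genes were positive in 51 of 60, with a median of 0.34. At an unadjusted p under 0.05, 14 (23.3%) were positive and 1 (1.67%) negative, against 6.22% and 7.28% of all genes tested. Rplp1, a protein of the ribosomal stalk, had 964, 981 and 1009 CPM in Sham, 879.9, 878 and 901 in Sham-E, 992, 508 and 785 in MI, and 1336, 1536 and 1277 in MI-E. MI-E was above all other groups and MI spread widely. Its interaction was 1.01 ± 0.29, and 0.35 with the length and GC offset. With that offset the list median was 0.063, against −0.12 for all genes, with 7 of 60 positive and 5 negative at an unadjusted p under 0.05 (3.73% and 7.96% of all genes). It was 0.33 without Sham-E 1 and 0.17 without MI 2.

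Stroma and bone genes had a median of 0.75 over 26 members. At an unadjusted p under 0.05, 5 (19.2%) were positive and none negative, against 6.22% and 7.28% of all genes tested. The median was 0.43 without Sham-E 1, with 2 positive at that level (5.80% of all genes). It ran from 0.37 to 1.84 as each library was left out, lowest without Sham 1 and highest without Sham-E 3. Cxcl12, the chemokine that holds cells in the marrow, had 188, 82.5 and 105 CPM in Sham, 89.3, 44.3 and 228 in Sham-E, 129, 73.1 and 120.5 in MI, and 267, 192 and 299.6 in MI-E. The Sham-E libraries spread widely and overlapped with every group. The interaction of Cxcl12 was 1.28 ± 0.73, and that of its receptor gene Cxcr4 −0.082 ± 0.30. Skeletal muscle genes are markers of tissue left on bone, and 8 of the 16 listed had enough counts to be tested. These faint members had a median of 1.37, 7 of them positive, and a mean log2 CPM of −0.79 to 0.68 over all libraries. The median was 1.40 without Sham-E 1, 1.05 without Sham 4, 0.86 with column number as a block and 0.35 on log2(TPM + 1).

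Interferon-response genes were negative in 29 of 34, with a median of −0.45. At an unadjusted p under 0.05, 7.28% of all genes tested were negative, against 2 (5.88%) of the interferon-response genes. Their mean log2 CPM was 3.68 in Sham-E 1 and 5.39 and 5.49 in the other Sham-E libraries. Without Sham-E 1, 33 of 34 were negative, 10 at an unadjusted p under 0.05 (5.31% of all genes), with a median of −0.72. Without MI 2, in which the level was 5.11 against 4.06 and 4.05 in the other MI libraries, the median was 0.043. It was −0.25 without Sham-E 2 and −0.25 without Sham-E 3. Their direction therefore rested on MI 2, and its strength also on the tool. With limma-voom the median was −0.053, with 14 positive and 20 negative. On log2(TPM + 1) it was −0.089, with 13 positive and 21 negative.

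Macrophage genes were negative in 14 of 15, with none at an unadjusted p under 0.05 and a median of −0.49. It was −0.37 without Sham-E 1 and −0.23 without Sham-E 3. The list's mean log2 CPM was higher in MI 3 (6.29) than in MI 1 (5.55) and MI 2 (5.58). Leaving out MI 3 took the median to −0.058, with 7 positive and 8 negative. Glucocorticoid-response genes had a median of −0.49 over 20 members. At that level 1 (5%) was positive and 2 (10%) were negative, against 6.22% and 7.28% of all genes tested. The median was −0.085 without MI 3, with 8 positive and 12 negative, −0.74 without MI-E 2 and −0.38 without Sham-E 1. Without MI 2 it was −0.79, with 8 negative at an unadjusted p under 0.05 (6.14% of all genes).

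The remaining lists had medians that were near 0 or moved with single libraries. The medians were 0.52 for plasma cell genes, 0.25 for inflammation genes, 0.13 for T and natural killer cell genes, 0.13 for spliceosome and RNA-binding genes, 0.078 for stem and progenitor genes and 0.049 for proteasome and chaperonin genes. They were −0.072 for heat shock genes, −0.079 for fat oxidation and ketone genes, −0.11 for monocyte and dendritic cell genes, −0.24 for osteoclast genes and −0.27 for glycolysis genes. Without Sham-E 1, osteoclast genes had a median of 0.28, with 5 of 9 positive, glycolysis genes of 0.089, with 14 of 23 positive, T and natural killer cell genes of −0.0047 and plasma cell genes of 0.23. As each library was left out, the median ran from 0.23 to 0.89 for plasma cell genes, from −0.050 (without MI-E 3) to 0.38 for inflammation genes, from −0.044 (without Sham 3) to 0.30 for T and natural killer cell genes and from 0.071 to 0.19 for spliceosome and RNA-binding genes. It ran from −0.034 (without Sham-E 3) to 0.29 (without MI 3) for stem and progenitor genes, from −0.0083 (without Sham-E 3) to 0.13 for proteasome and chaperonin genes and from −0.51 (without MI 3) to 0.11 (without MI 2) for heat shock genes. The range was −0.28 to 0.086 (without MI 1) for monocyte and dendritic cell genes and −0.13 to −0.0091 for fat oxidation and ketone genes.

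Among sodium-glucose transporters, Slc5a1, which takes up glucose in the gut, had 1 count over all 12 libraries and was not tested. Slc5a2, the glucose transporter of the kidney tubule, was faint and had 0.555, 0.41 and 0.834 CPM in Sham, 0, 0.233 and 0.4 in Sham-E, 0, 0.248 and 0.296 in MI, and 0.592, 1.33 and 1.5 in MI-E. Counts were 0 to 33 per library, and MI-E was above Sham-E and MI. Its interaction was 4.15 ± 1.31 (log2 ± SE, edgeR adjusted p = 0.27), and 20.6% of its exon bases overlap another gene.

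**Figure D4:**
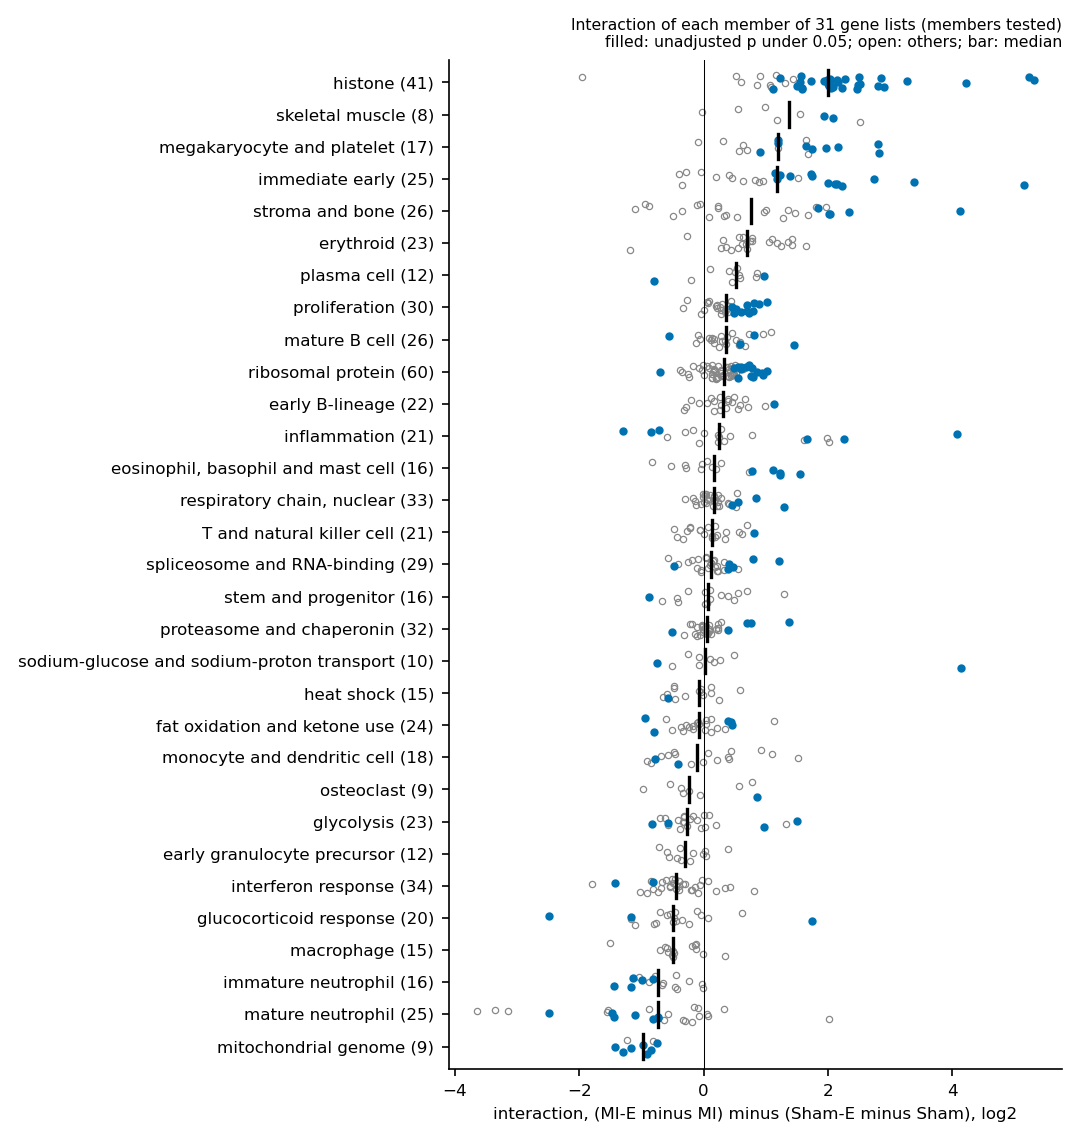
Interaction (x axis, log2) of each tested member of 31 gene lists, ordered by median, with the number of members in parentheses. Filled points had an unadjusted p under 0.05, bars are medians, histone genes lie farthest right and genes of the mitochondrial genome farthest left.

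The interaction also moved with properties of the transcripts. In the tenth of genes with the lowest GC content the median was −0.34, with 1.06% of genes positive and 18.3% negative at an unadjusted p under 0.05. In the tenth with the highest GC content it was 0.33, with 16.1% positive and 0.53% negative. Across 15099 genes with a transcript, Spearman's rho was 0.36 with GC content and −0.18 with length, as descriptions. The trend was in the EMPA difference after infarction, whose medians went from −0.31 to 0.27 over these bins, against 0.038 to −0.050 after sham surgery. Median GC content was 55.6% for histone, 54.6% for megakaryocyte and platelet and 54.1% for immediate early genes. It was 55.7% for early granulocyte precursor genes, whose median interaction was −0.29. In the tenth from 55.3% to 57.7% GC, 11.2% of genes were positive and 1.32% negative at an unadjusted p under 0.05.

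Insert length in single libraries was 283.3 to 286.1 bp in Sham, 270.2 to 279.4 bp in Sham-E, 262.3 to 264.4 bp in MI and 279.3 to 281.9 bp in MI-E. An offset for length and GC content, chosen after seeing the data, left 2 genes called, 1 in each direction.

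**Figure D5:**
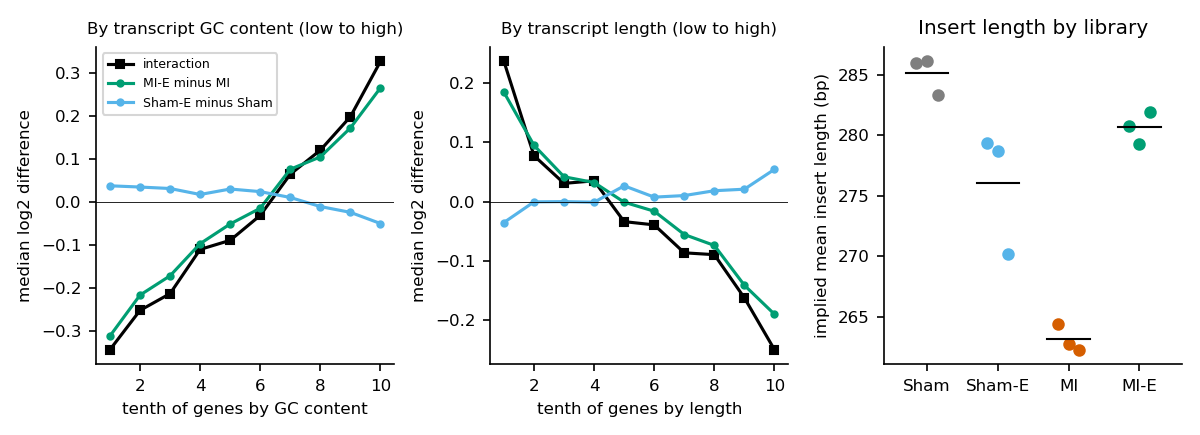
Left and middle, median log2 interaction and both EMPA differences in 10 bins of genes ordered by GC content and by length of the longest transcript. Right, mean insert length implied for each library (points; lines are group means; axis not from 0), shortest in MI at 262.3 to 264.4 bp.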

How the data were processed

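The authors deposited 1 table of expected counts per gene and 1 of TPM, over 53801 genes and 12 columns; per the submitters' processing notes, CASAVA 1.8, STAR 2.4.0j, RSEM and mm10 were used. Columns were tied to groups by name. Expected counts were rounded, filtered (filterByExpr), scaled by TMM and fitted with edgeR 4.0.16 (R 4.3.3; robust quasi-likelihood F-test, 4 group means, 8 residual degrees of freedom). SE is the log2 value over the square root of F. The fit was tested on simulated data in which effects were placed only in well-counted genes and only in MI-E. That test did not cover faint genes or libraries that stand apart. Alternatives used DESeq2 1.42.0, limma 3.58.1 (voom, and trend on log2(TPM + 1) and log2(TPM + 0.1)), other scalings and filters, a replicate block, and each library left out. Annotation, length and GC content came from GENCODE M21, and promoter windows from RefSeq. Named genes were up to 12 a direction past the threshold (mean log2 CPM 1 or more), filled to 8 by smallest p, up to 4 of smallest p per list, and fixed genes. The contrast, the 31 lists and the rule were chosen with earlier results of these data known. The result for 1 of the fixed genes is not reported here.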

Additional observations from a re-analysis of the deposited data

Results flagged for a closer look

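The EMPA difference of B430305J03Rik differed between infarcted and sham-operated mice by edgeR's test of the interaction itself, at 7.39 ± 0.79 (log2 ± SE; edgeR adjusted p = 0.0072). This call was lost with limma-voom (adjusted p = 0.126) and with a replicate block (edgeR adjusted p = 0.14). The size of the interaction ran from 1.92 to 7.68 over the alternatives that kept all libraries. In the main fit the EMPA difference was 6.71 ± 0.66 after infarction and −0.68 ± 0.40 after sham surgery. MI-E was above MI in every pair of libraries. The gene shares all its exon bases with Rap2b on the other strand, and the part of strand or of annotation in the result was not tested.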

How the results depend on the processing

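Calls for the interaction (1 gene, positive, in the main fit) were 167 with DESeq2 (106 positive, 61 negative), 0 with limma-voom and 0 with the replicate block, 12 on log2(TPM + 0.1) (7 and 5), 7 on log2(TPM + 1) (5 and 2) and 2 with the length and GC offset (1 and 1). Leaving out 1 library at a time gave 1 to 150 calls, 1 to 88 positive and 0 to 62 negative. The 150 came without MI 1, and 2 without Sham-E 2. Other scalings and filters gave 1.

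The correlation of the EMPA differences was −0.21. It was −0.27 with a CPM of at least 1 in 3 libraries, −0.25 on log2(TPM + 0.1), −0.32 on log2(TPM + 1), −0.24 with limma-voom and −0.042 with no filter, and −0.22 to −0.11 with a library left out. The share of opposite signs was 56.3% with no filter, 55.97% with the replicate block, and 54.8% to 63.4% with a library left out. Without MI 1 and without MI 2 the shares were 57.5% and 56.8%.

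The labels do not say whether a shared column number marks samples handled together. Of 13 same-numbered pairs of libraries, 4 had deviations correlated over 0.1 (range −0.21 to 0.15). Differently numbered pairs were not compared, so these values cannot decide it. With the replicate block, 1042 genes had an unadjusted p under 0.05, and B430305J03Rik had 7.49 ± 0.90 (edgeR adjusted p = 0.14).

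Of 147 named genes, 138 kept their sign in all 24 alternatives. Most of them were picked for a small p in the main fit, and the alternatives reuse the same libraries. Kept signs are therefore a description and no independent check. Tlr9 was 0.031 with the block. With libraries left out in turn, sign changes gave these ranges: Tlr9 −0.30 to 0.094, Ms4a1 −0.066 to 0.72, Ighd −0.16 to 0.43, Cxcr4 −0.31 to 0.076, Rag1 −0.41 to 1.11 and Il7r −0.28 to 0.56. Serpinb1a (−1.01 to 0.058), Ms4a3 (−0.94 to 0.52) and Ctsg (−0.89 to 0.47) were positive without Sham-E 1. Of 31 list medians, 18 kept their sign. Depth limits faint genes such as Slc5a2 and the histone copies.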

Other observations

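Toll-like receptors, which sense microbial molecules, were read after their values were seen, so the counts are descriptions. Of 12 tested, 10 had a negative interaction, 6 at an unadjusted p under 0.05 and none positive at that level. Of all genes tested, 53% were negative, and 7.28% were negative at that level. Tlr7, which senses single-stranded RNA inside endosomes, had 22.3, 21.7 and 21.6 CPM in Sham, 29.1, 28.6 and 30.7 in Sham-E, 28.3, 32.5 and 41.5 in MI, and 25.3, 20.3 and 23.4 in MI-E. Sham-E and MI overlapped above Sham and MI-E, which overlapped at the lower levels. The interaction of Tlr7 was −0.999 ± 0.21 (log2 ± SE, edgeR adjusted p = 0.24).

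Tlr13, which senses bacterial ribosomal RNA, had 107, 82.4 and 78.3 CPM in Sham, 132, 117 and 109 in Sham-E, 135, 175 and 164 in MI, and 107, 112 and 100.01 in MI-E. MI was the highest group, and Sham-E and MI-E overlapped. The interaction was −0.99 ± 0.21 for Tlr13, −1.15 ± 0.27 for Tlr8 and −0.15 ± 0.29 for Tlr9, which senses DNA. With the length and GC offset it was −0.81 for Tlr7 and −0.87 for Tlr13. Tlr7 and Tlr8 transcripts had a GC content of 41.0% and 40.1%, within the tenth of lowest GC content, and Tlr9 had 56.2%.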
